A study of Nothobranchius furzeri with 20 samples.

Results

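Swim-tunnel exercise was examined in the skin of young turquoise killifish (Nothobranchius furzeri) by comparing 5 exercised fish of 9 weeks with 5 fish of the same age without exercise. These 10 libraries are all those of the 20 in the series that were labelled 9 weeks, and they were chosen by their labels alone. All fish were males of the strain MZM-04/10p, and the perturbation was labelled swim-tunnel in the exercised group and none in the other. Total RNA of skin was made into sequencing libraries with a TruSeq RNA kit. The labels give neither the duration nor the intensity of swimming, nor the time between the last swim and sampling. They do not say that each library came from a separate animal. The p-values below therefore set group differences against the spread among libraries, which may be technical in part. Each library is called 1 fish here and named by its group and replicate number.

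The turquoise killifish is an annual fish whose short life makes it a model of ageing. In a swim tunnel a fish holds its place against a flow of water. Fish skin is a living barrier: an outer epithelium with mucus cells covers a dermis that holds scales, pigment cells, vessels and nerves, and it lies directly on the swimming muscle. A piece of skin therefore contains many cell types, and fewer cells of a type cannot be told apart from less RNA per cell in a bulk library.

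The counts table pairs no identifier with a gene name, and 0 of its 26739 identifiers matched the RefSeq gene table of the assembly NfurGRZ-RIMD1. No gene is therefore given a name, a function or a sequence, and the skin label was not checked against markers of skin, muscle or blood. The account below rests on the sizes of the changes and on how far the fish of a group agreed. Exercised fish had titles JM117 to JM121 and unexercised fish JM124 to JM128, so an effect of exercise and one of handling by title number cannot be told apart.

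Totals were 25924289 to 36731227 counts per fish, so a level of 1 CPM, the unit of counts scaled to a common library total, stood for about 25.9 to 36.7 counts before scaling. Mean totals were 31029600 ± 3884890 in exercised and 31449800 ± 4277110 in unexercised fish (SD, n = 5 each). Neither the total, the number of genes at 1 CPM or more, the fraction of reads taken by the 10 highest genes nor the scaling factor passed a test between the groups. The lowest of the 4 exact two-sided permutation p-values was 0.206 (n = 5 against 5, adjusted p = 0.603), for 16236 ± 226 genes at 1 CPM or more in exercised and 16578 ± 520 in unexercised fish.

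Of the 10 fish, 3 stood apart from their group before any gene was tested. Replicate 1 of the exercised fish lay at 31.3 on the first principal component of log2 CPM, while the other 4 exercised fish lay between -51.8 and -38.2. Replicate 5 of the unexercised fish lay at -37.9, beside those 4 exercised fish, and the other 4 unexercised fish lay between 9.66 and 90.5. Replicate 3 of the unexercised fish had that highest value of 90.5, and also the lowest value on the second component, -57.1. The first component held 42.7% of the variance and the second 13.8%. The leading component thus did not follow the label in 1 fish of each group. Whether these 2 libraries carry each other's label was not tested, and every difference between the groups below takes the labels as given.

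**Figure D1:**
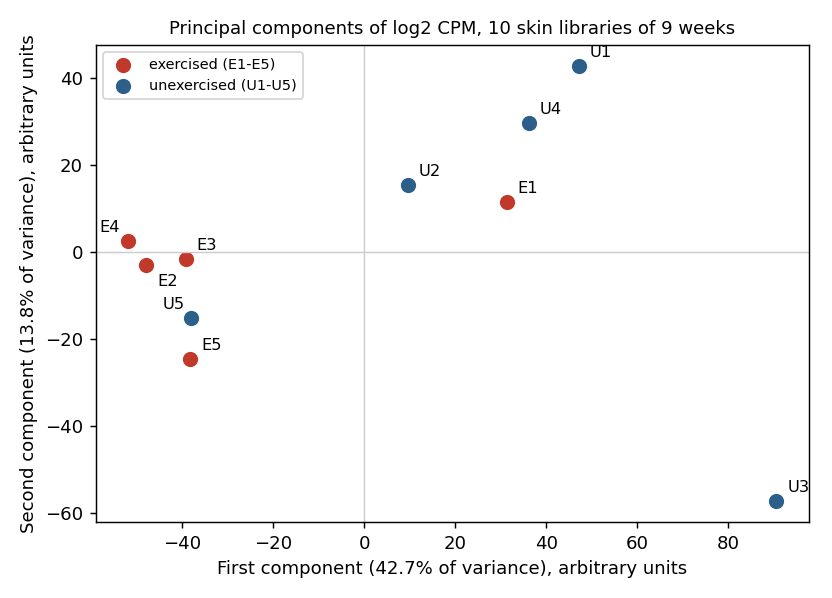
Each point is 1 fish placed by the first (horizontal) and second (vertical) principal component of log2 CPM over 18520 genes, in arbitrary units, with exercised fish E1 to E5 in red and unexercised fish U1 to U5 in blue. E1 lies among the unexercised fish at 31.3 on the first component, U5 lies among the exercised fish at -37.9, and U3 lies alone at 90.5.

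Agreement between fish was also read from the correlation of log2 CPM across the 18520 tested genes, which are not independent replicates. Pearson's r within the exercised group averaged 0.963 over 10 pairs and ranged from 0.940 to 0.976. Within the unexercised group it averaged 0.948 over 10 pairs and ranged from 0.908 to 0.977. Across the groups it averaged 0.944 over 25 pairs and ranged from 0.893 to 0.976. Pairs of exercised fish were thus the most alike on average, and pairs of unexercised fish were hardly more alike than pairs across the groups.

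Single fish departed from this average. Replicate 1 of the exercised group correlated with its own group at a mean r of 0.947 and with the unexercised group at 0.954. Replicate 5 of the unexercised group correlated with its own group at 0.939 and with the exercised group at 0.963. Replicate 2 of the unexercised group also correlated slightly less with its own group (0.959) than with the exercised group (0.960). The remaining 7 fish correlated better with their own group, by 0.00771 to 0.0302. The closest single fish to replicate 4 of the exercised group was replicate 5 of the unexercised group.

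The group label accounted for 22.3% of the total variance in log2 CPM over all tested genes. An exact permutation test over all ways to assign 5 of the 10 fish gave p = 0.0476 (one-sided, as only larger shares count), where the smallest possible p is 0.00794. Without replicate 1 of the exercised fish the share was 30.4% (exact p = 0.0159), and without replicate 5 of the unexercised fish it was 32.0% (exact p = 0.0238). Leaving out fish that lie against their label raises the separation by construction, so the pair was not left out together. Without any 1 of the other 8 fish the share was 20.0% to 24.1% and did not pass (exact p = 0.0556 to 0.0873).

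The spread within groups was not shown to differ. The variance within the exercised group, summed over genes, was 0.724 times that within the unexercised group (exact permutation test, two-sided, n = 5 against 5, p = 0.5). The SD between fish was larger in the exercised group for 8726 genes, 47.1% of those tested. The median gene had an SD between fish of 0.244 in the exercised and 0.256 in the unexercised group on the log2 CPM scale. Without replicate 1 of the exercised fish the ratio was 0.523, and this passed with the smallest p the design allows (exact p = 0.00794, n = 4 against 5). That fish lay farthest from the other exercised fish, so leaving it out lowers the exercised variance by construction. The permuted groups mix fish of both labels, so a shift between the groups also enters these p-values. Without replicate 3 of the unexercised fish the ratio was 0.929 (exact p = 0.683), so the ratio depended on single fish.

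Across all 18520 tested genes the changes with exercise were small. The median gene differed between exercised and unexercised fish by 1.13-fold in either direction, a median absolute log2 fold change of 0.17. The median signed log2 fold change was -0.01. The middle 50% of genes lay between -0.20 and 0.15, and the central 90% between -0.91 and 0.51. The lower tail was thus longer than the upper one. At the outer 1% on each side the log2 fold change was -2.57 for lower and 1.0 for higher genes.

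Most genes were measured precisely enough to bound the change. The 95% interval of the log2 fold change had a median half-width of 0.38, or 1.30-fold. For 14450 genes (78.0%) the whole interval lay inside a 2-fold change in either direction, and for 9595 (51.8%) inside 1.5-fold. The intervals came from the edgeR fit and each covers 1 gene, with no adjustment over genes. The share depended on how many reads a gene had. It was 44.7% of the 3704 genes of lowest level, with a median of 1.03 CPM. Of the 3704 genes of next to highest level, with a median of 24.1 CPM, it was 92.5%. It rose no further in the 3704 genes of highest level (91.8%, median 71.3 CPM). These levels are not scaled by gene length, and serve here only as a measure of reads.

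Only 2 genes (0.0108% of those tested) passed an adjusted p of 0.05 in edgeR's quasi-likelihood test, 1 higher (0.0054%) and 1 lower (0.0054%) with exercise. At an adjusted p of 0.1 there were 12. Nfu_g_1_008319 had 25.9, 31.4, 29.2, 27.9 and 30.7 CPM in the 5 exercised fish, against 15.7, 14.0, 15.5, 16.1 and 19.4 CPM in the 5 unexercised fish. The lowest exercised fish was well above the highest unexercised fish. These 2 fish were replicate 1 of the exercised and replicate 5 of the unexercised group, which also lay toward the other group in the whole profile. The change was 1.8-fold, with a 95% interval of 1.55- to 2.09-fold, and the log2 fold change was 0.85 (SE 0.0973, edgeR adjusted p = 0.0336).

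Nfu_g_1_013151 was the gene that was called lower. It had 44.7, 42.0, 40.2, 47.1 and 39.6 CPM in exercised fish, against 73.3, 76.8, 87.4, 68.2 and 72.0 CPM in unexercised fish. Again no fish of one group reached the range of the other. The level in exercised fish was 1.77-fold lower, with a 95% interval of 1.55- to 2.02-fold, and the log2 fold change was -0.82 (SE 0.0862, edgeR adjusted p = 0.0288).

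The size of both changes depended little on any 1 fish, while the calls did. Both genes were picked by their p in these same fish, which favours a stable size. When each of the 10 fish was left out in turn, the log2 fold change of Nfu_g_1_008319 stayed between 0.80 and 0.92 and that of Nfu_g_1_013151 between -0.86 and -0.77. The first stayed called without replicate 1 of the exercised or replicate 5 of the unexercised fish (edgeR adjusted p = 0.0264 and 0.0205). The second stayed called without those fish or without replicate 3 of the unexercised fish (adjusted p = 0.0264, 0.0350 and 0.0486). Without any 1 of the other fish the edgeR adjusted p was 0.0768 to 0.164 for the first gene and 0.0597 to 0.164 for the second. With a surrogate variable in the fit, neither passed (adjusted p = 0.118 and 0.115).

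Larger changes without overlap between the groups were found in genes that did not pass the threshold. The one with the largest change in each direction, picked from these same data, is described here. Nfu_g_1_018732 had 10.8, 14.6, 12.5, 11.5 and 10.1 CPM in exercised fish, against 4.16, 2.32, 0.880, 1.81 and 3.57 CPM in unexercised fish. On a log scale the exercised fish lay within a narrow range, and the unexercised fish were spread over a wider one below it. Without the log the SD was larger for the exercised group, at 1.75 CPM against 1.32 for the other group. The log2 fold change was 2.22 (SE 0.344, edgeR adjusted p = 0.0979), and leaving out each fish gave 1.99 to 2.46 with no pass. DESeq2 (adjusted p = 2.11e-07) and limma-voom with weights for fish (0.0234) called it, and plain limma-voom did not (0.0704).

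Nfu_g_1_015724 had 0 to 4 counts per exercised fish, or 0 to 0.139 CPM. In unexercised fish it had 3.56, 10.6, 0.317, 0.453 and 0.595 CPM, which were 120, 365, 9, 14 and 19 counts. No unexercised fish reached down to the exercised range, but 2 of the 5 held most of the reads. The mean of 1.59 CPM over all fish, which let this gene be picked, rested on those 2. On the log2 scale the change was -5.37 with a 95% interval from -8.05 to -2.69 (SE 1.21, edgeR adjusted p = 0.158). Leaving out each fish gave -5.71 to -4.04, with -4.04 without replicate 2 of the unexercised fish, and no pass. DESeq2 called this gene as well (adjusted p = 6.68e-05), and limma-voom did not (0.258).

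**Figure D2:**
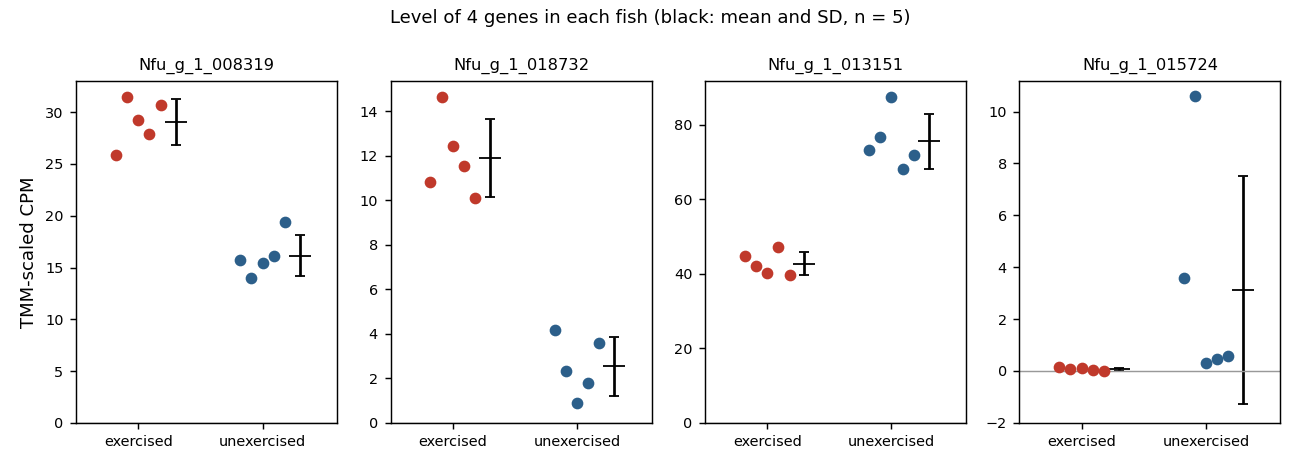
Each panel shows the TMM-scaled CPM of 1 gene in the 5 exercised fish (red, left) and the 5 unexercised fish (blue, right), with the mean and SD of each group in black (n = 5). The groups are apart in all 4 panels, and in the last the unexercised group is carried by 2 fish at 3.56 and 10.6 CPM.

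Beyond these, 2739 genes (14.8% of those tested) had an unadjusted p under 0.05 in the same edgeR fit, 1275 higher (6.88%) and 1464 lower (7.90%) in exercised fish. This balance was not stable: there were 1226 higher and 1173 lower genes in limma-voom, and 1062 and 1021, 979 and 956, and 1431 and 1366 without replicate 2, 3 or 4 of the exercised fish. For 557 genes (3.01%) the ranges of the exercised and unexercised fish did not overlap. All exercised fish were above all unexercised fish for 301 of them (1.63%), and below for 256 (1.38%). Without replicate 3 of the unexercised fish there were 430 above and 443 below, and without replicate 4 of the exercised fish 541 and 554, so this balance turned round too. Of these 557 genes, 536 also had an unadjusted p under 0.05. Changes in these 557 genes were mostly modest, with a median of 1.35-fold for the higher and 1.45-fold for the lower genes. A change of at least 2-fold was found in 83 of the 557 (14.9%), 47 higher and 36 lower, against 5.46% of all tested genes. The choice of genes without overlap sets this share in part.

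Genes in which the groups were apart but for a single crossed pair of fish numbered 224 (1.21% of those tested) on the higher and 219 (1.18%) on the lower side. A crossed pair is an exercised and an unexercised fish in the reverse order, out of 25 such pairs per gene. Among these 443 genes the exercised fish that crossed was most often replicate 4, in 32.5% of them, and least often replicate 3, in 8.80%. The unexercised fish that crossed was spread more evenly, from 76 genes for replicate 3 to 104 for replicate 1. Replicate 1 of the exercised and replicate 5 of the unexercised fish crossed in 97 and 89 genes. A fish far on the side of the other group crosses several pairs, so genes in which it does so are not among these 443.

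**Figure D3:**
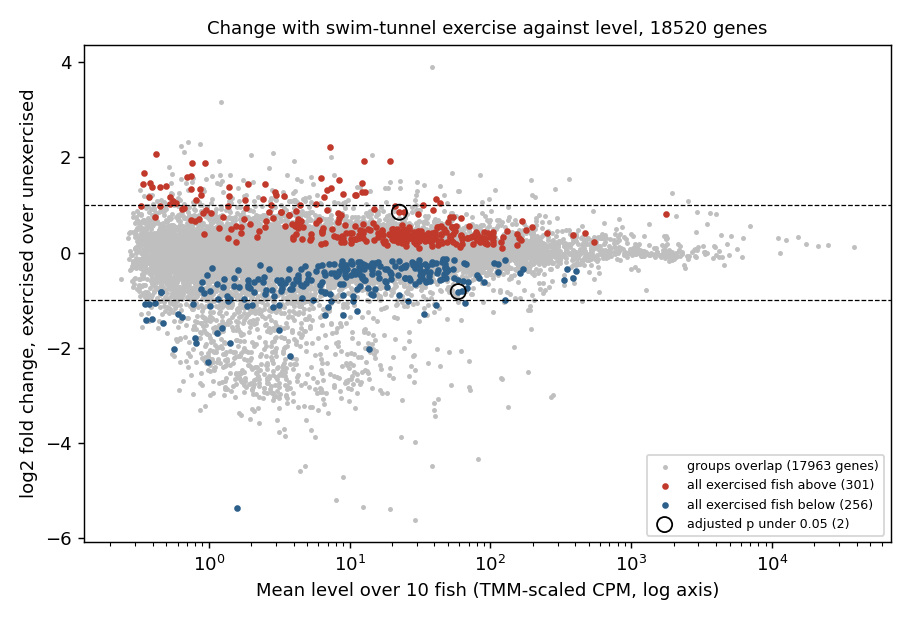
Each point is 1 of 18520 genes, with its mean level in CPM on a log axis (horizontal) and its log2 fold change of exercised over unexercised fish (vertical). Dashed lines mark 2-fold. Genes whose groups do not overlap are red (301 higher) or blue (256 lower), the 2 called genes are circled, and the cloud below the lower line is mostly of genes whose groups overlap.

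Large fold changes were more often lower than higher in exercised fish, and for most of these genes the groups overlapped. A change of at least 2-fold was fitted for 1012 genes (5.46% of those tested), of which 187 were higher and 825 lower in exercised fish. At 4-fold or more there were 12 higher and 366 lower genes. None of the 1012 passed the adjusted threshold in edgeR, where 556 (54.9%) had an unadjusted p under 0.05, against 14.8% of all tested genes. DESeq2 called 13.5% of them, against 2.77% of all, and limma-voom with weights for fish called Nfu_g_1_018732. The groups did not overlap for 83 of the 1012 genes (8.20%), and for 7 of the 378 genes at 4-fold or more (1.85%). The share over all tested genes was 3.01%. Of the 187 higher genes 47 were apart, and of the 825 lower genes 36. Over all 18520 tested genes 301 (1.63%) were apart and higher, and 256 (1.38%) apart and lower. The choice of genes by size of change sets these shares in part.

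A single fish often set the size of these changes. For 361 of the 1012 genes (35.7%), 1 fish lay outside Dixon's 95% limit in its group of 5, against 2612 of all 18520 genes (14.1%). For 580 of the 1012 (57.3%), the change fell below 2-fold when some 1 fish was left out, and for 100 it changed sign. This is a description of genes selected for a large fitted change, and both shares are set by that selection in part.

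Replicate 3 of the unexercised fish was the fish most often behind the lower genes. It was the highest of all 10 fish in 545 of the 825 genes (66.1%), followed by replicate 1 of the same group in 163 (19.8%). A high level in an unexercised fish itself raises the fitted fall, so these shares are set by the choice of genes in part. The matching shares over all tested genes are not given. The median level of the 825 genes was 2.06, 0.520, 0.588, 0.497 and 0.796 CPM in the 5 exercised fish, against 2.70, 1.36, 9.36, 2.14 and 0.971 CPM in the 5 unexercised fish. Replicate 3 of the unexercised fish stood far above all others. Replicate 1 of the exercised fish was above replicates 2 and 5 of the unexercised fish, and replicate 5 of the unexercised fish was close to the other 4 exercised fish. Together the 825 genes took 0.195% to 0.529% of counts in exercised and 0.589% to 2.30% in unexercised fish. The choice of genes by their fall in these same fish favours such a gap.

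The 366 genes at least 4-fold lower, a part of those at least 2-fold lower, showed nearly the same order more sharply. Replicate 3 of the unexercised fish was the highest of all 10 fish in 238 of them. Without that fish 241 were still at least 2-fold lower and 24 had the opposite sign. The 366 genes were chosen by a larger fall in these same fish, so the sharper order is set by that choice in part. Their median level was 2.37, 0.173, 0.321, 0.266 and 0.485 CPM in the exercised fish, against 4.49, 1.09, 12.3, 3.25 and 0.626 CPM in the unexercised fish. The 4 exercised fish other than replicate 1 and replicate 5 of the unexercised fish were all below 1 CPM, and the other 5 fish were all above it.

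**Figure D4:**
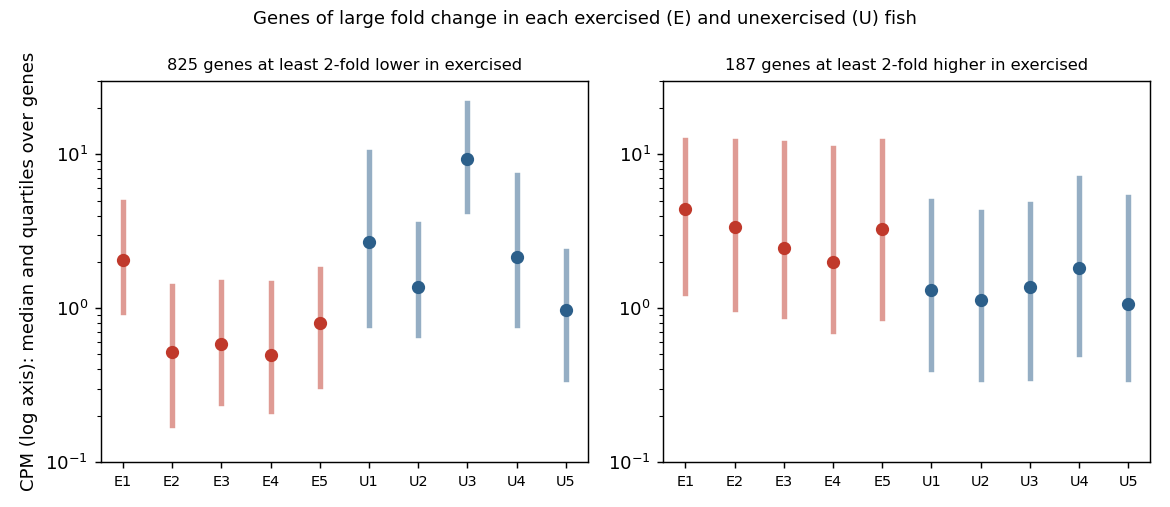
For genes at least 2-fold lower (left panel, 825 genes) and at least 2-fold higher (right panel, 187 genes) in exercised fish, points show the median CPM on a log axis in each fish and bars the quartiles over genes, with exercised fish E1 to E5 in red and unexercised fish U1 to U5 in blue. On the left U3 is highest at 9.36 CPM and E1 lies at 2.06 CPM among the unexercised fish. On the right every exercised median is above every unexercised one. The choice of genes favours a gap between the groups in both panels.

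Leaving out replicate 3 of the unexercised fish changed this picture most. The number of genes at least 2-fold lower was then 463 and that of genes at least 2-fold higher 219, and at 4-fold or more 202 and 13. Of the 825 genes, 421 (51.0%) were still at least 2-fold lower without this fish and 98 had the opposite sign. Without any 1 of the other 9 fish there were 880 to 998 genes at least 2-fold lower and 159 to 253 at least 2-fold higher. The excess of large falls over large rises was therefore present in all 10 of these fits, and smallest without that fish. What set this fish apart was not tested. Its total of 25924289 counts was the lowest of the 10, with 26420244 in replicate 5 of the exercised fish. Its 17408 genes at 1 CPM or more were the most of the 10.

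**Figure D5:**
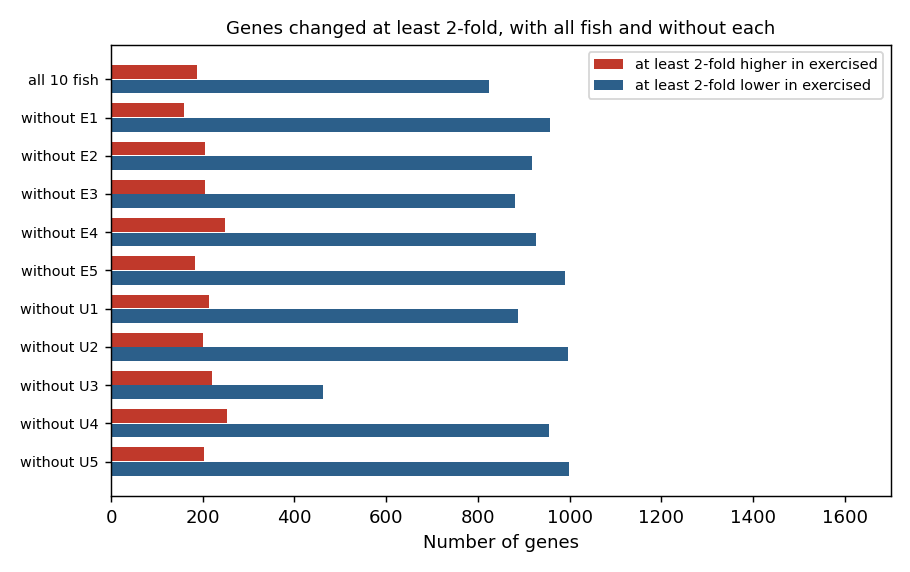
Bars give the number of genes with a fitted change of at least 2-fold, higher (red) and lower (blue) in exercised fish, with all 10 fish and without each exercised (E) or unexercised (U) fish. The lower count is 825 with all fish and 463 without U3, and the higher count stays between 159 and 253.

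The 187 genes at least 2-fold higher behaved differently from fish to fish. Their median level was 4.43, 3.36, 2.46, 1.99 and 3.29 CPM in the exercised fish, against 1.31, 1.13, 1.37, 1.81 and 1.06 CPM in the unexercised fish. All 5 exercised medians were above all 5 unexercised ones, which the choice of genes favours. Replicate 1 of the exercised fish was the highest of all 10 fish in 91 of the 187 genes (48.7%), a share that the choice of genes also sets in part. Without that fish 159 genes were at least 2-fold higher and 5 at least 4-fold higher, against 12 at 4-fold with all fish and 27 without replicate 4 of the unexercised fish.

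The balance of higher and lower genes at an unadjusted p under 0.05 was also set out by level and by gene length, as counts with no test. Over all 18520 tested genes 1275 (6.88%) were higher and 1464 (7.90%) lower. Among the 3704 genes of lowest level 176 were higher and 323 lower in exercised fish, and among the 3704 of highest level 320 were higher and 225 lower. Without replicate 3 of the unexercised fish these counts were 183 and 196, and 225 and 270, so the balance among the highest genes turned round. Without replicate 2, 3 or 4 of the exercised fish the lowest genes had 153, 158 and 201 higher and 194, 188 and 208 lower. The lowest genes had more lower than higher genes in every fit that left out a fish. The highest genes turned round only without replicate 3 of the unexercised fish. Gene length, in kb as recovered from the deposited RPKM values, gave a split that kept its direction at both ends. Among the 4630 shortest genes (median 0.801 kb) 233 were higher and 362 lower, and among the 4630 longest (median 6.49 kb) 387 were higher and 290 lower. Levels in CPM are not scaled by length, so this split may overlap with that by level. Level and length were not separated.

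The split by length kept its direction in each of the 10 fits without 1 fish. Counts by length are not given for the other tests. Without replicate 3 of the unexercised fish there were 205 higher and 331 lower among the shortest genes and 320 and 273 among the longest. Without replicate 5 of the unexercised fish these were 198 and 381, and 336 and 300. The median log2 fold change was -0.03 in the shortest and 0.02 in the longest genes, so the shift itself was small. The genes whose groups were apart were divided likewise, 54 higher and 82 lower among the shortest and 100 and 46 among the longest. They made up 2.94% of the shortest and 3.15% of the longest genes, against 3.01% of all tested genes. As 536 of these 557 genes also had an unadjusted p under 0.05 in the same fish, this is no separate support for the split.

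Few genes were seen in one group alone. Of the 26739 genes in the table, 19754 had a count in all 10 fish and 4032 in none. Counts were found in exercised fish alone for 231 genes, of which 170 rested on 1 fish and 3 were seen in all 5. Counts in unexercised fish alone were found for 311 genes, 198 in 1 fish and 2 in all 5. The highest summed count of such a gene was 106 over the 5 exercised and 45 over the 5 unexercised fish.

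The choice of test moved the number of calls more than any other setting. DESeq2, run on the same 18520 genes, called 513 (2.77%), of which 270 were higher and 243 lower. For 663 genes it gave no adjusted p, and these count as not called. All 513 had an unadjusted p under 0.05 in edgeR, and 2 passed there after adjustment. Their median change in the edgeR fit was 1.54-fold, and 285 changed at least 1.5-fold. The groups did not overlap for 304 of them (59.3%), against 3.01% of all tested genes. These genes were called from the same fish, so this share is set by that choice in part and is no separate support for the calls. The other 253 of the 557 genes whose groups were apart were not called by DESeq2. The lowest edgeR adjusted p among the 511 called by DESeq2 but not by edgeR was 0.0641, and the median over the 513 was 0.190.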

How the data were processed

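Counts were deposited as whole reads per gene, unnormalized. The submitters' processing notes name featureCounts 1.4.6-p4, STAR 2.4.1d and bcl2fastq 1.8.4. Build, annotation, strand and handling of multiply matching reads are not given, so overlapping genes and close copies may share reads. The deposited RPKM values were used for gene length alone: over 10228 genes they were constant against counts only with the 20 library totals recycled down the rows (median SD of the natural log ratio 3.77e-05, against 0.227 with each library's own total). They carry the wrong total in most cells.

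Counts of the 10 libraries were filtered by edgeR's expression filter, scaled by TMM and tested with edgeR 4.0.16 (R 4.3.3), using robust quasi-likelihood fits, adjusted by Benjamini-Hochberg over 18520 genes. SE is the absolute log2 fold change over the square root of F, and log2 CPM used a prior count of 2. Single values over fish had exact permutation tests. Named identifiers were, up to 2 per direction, genes past the threshold whose mean reached 1 CPM, then the largest change without overlap. The groups were set by their labels. That comparison, this rule and the alternatives were chosen with earlier results of these data known. The sets by size of change were chosen after seeing the changes. No gene list was tested for want of names. No 2 libraries of a group agreed within sampling noise (lowest chi-square per degree of freedom 54.8 over 20 pairs). Alternatives used DESeq2 1.42.0, limma 3.58.1 and sva 3.50.0.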

Additional observations from a re-analysis of the deposited data

Results flagged for a closer look

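Out of 24 checks of per-fish values in groups of 5, 3 found a fish far from the rest of its group, and about 1.2 would arise by chance. The checks overlap, as the first component and the mean r both come from the same log2 CPM profile. Setting 3 against 1.2 is therefore not a test. Replicate 1 of the exercised fish lay at 31.3 on the first principal component, with the nearest other exercised fish at -38.2. The same fish had the lowest mean r with its own group, 0.947, with the next at 0.966. Replicate 3 of the unexercised fish was the single fish outside Dixon's 95% limit in 990 genes (744 high and 246 low), with 183 genes for the next fish of its group.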

How the results depend on the processing

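The number of called genes was 2 with all edgeR scalings, filters and the fit without robust weights, and in limma-voom. It was 3 in limma-voom with weights for fish, 513 in DESeq2 and 0 in edgeR with 1 surrogate variable, where 2308 genes had an unadjusted p under 0.05. Without 1 fish it was 0 to 7, with 0 for 7 of the 10 fish, 1 without replicate 3 and 3 without replicate 5 of the unexercised fish, and 7 without replicate 1 of the exercised fish. At an unadjusted p under 0.05 those fits gave 1935 to 2797 genes. Genes whose groups did not overlap numbered 692 to 1095 without 1 fish, since 4 against 5 fish overlap less readily. With no filter 2692 genes changed at least 2-fold, 1967 of them lower, and the median absolute log2 fold change was 0.21. With a filter of 1 CPM in 5 libraries 594 did, 475 of them lower. Genes at least 2-fold lower numbered 542 in limma-voom with weights, 433 with the surrogate variable and 463 to 998 without 1 fish, and all genes at least 2-fold changed 682 to 1208. The share of variance between groups was 20.0% to 32.0% and the log ratio of the spread -0.65 to -0.0739 without 1 fish. Both kept their side of the threshold with other size factors, a prior count of 0.5, the stricter filter and ranks. The direction of the 4 named genes was the same in each of these settings that tested them (Nfu_g_1_015724 did not pass the filter of 1 CPM in 5 libraries), while the balance of higher and lower genes at an unadjusted p under 0.05, without overlap and among the genes of highest level turned round in some, as given with those counts. No paired analysis was possible because the labels give no replicate numbers shared by the groups. Depth limits genes of low level: 44.7% of the 3704 lowest had intervals inside 2-fold.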
